A study of Mus musculus with 18 samples.

Results

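The mitochondrial ribosomal protein genes were taken by name, as every symbol in the FPKM tables that begins with Mrpl (large subunit) or Mrps (small subunit) followed by a number, kept where 3 or more of the 18 samples reached 1 FPKM. FPKM is a read count per kilobase of transcript, scaled to the size of the library. All 78 symbols that matched, 49 Mrpl and 29 Mrps, passed this limit, out of 24338 symbols shared by the tissue and culture tables. Each of the 78 was at or above 1 FPKM in all 18 samples, so the limit left none out. The samples were inguinal white fat of mice (iWAT, a depot under the skin of the groin) and adipocytes made in culture from the stromal vascular fraction of that depot, each from wild type (WT) and from NFIA-Tg, which carries a transgene for the transcription factor NFIA. Cultures were taken at day 0, before induction, and at day 7. Induction lasted 48 h in isobutylmethylxanthine, indomethacin, dexamethasone, insulin, T3 and rosiglitazone, and was followed by medium with insulin, T3 and rosiglitazone in both genotypes. The 6 groups had 3 samples each. The sources used here do not give the promoter of the transgene or the strain, sex and age of the animals. No label says that replicates were separate animals or cultures. The p-values therefore weigh each group difference against the scatter of these samples, and part of that scatter may be technical. They may not speak for differences between animals or cultures.

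Mitochondria carry their own ribosome, which translates the few proteins encoded in mitochondrial DNA, all of them core subunits of the respiratory chain and of ATP synthase. Its RNAs come from mitochondrial DNA, but its proteins are encoded in the nucleus, made in the cytosol and imported. The small subunit reads the messenger RNA and the large subunit joins amino acids and passes the new chain to the inner membrane. Brown and beige adipocytes are known for their many mitochondria, and mitochondrial content also rises when white preadipocytes become fat cells. By role, 30 of the 49 Mrpl genes encode homologs of bacterial ribosomal proteins and 19 encode proteins found in the mitochondrial ribosome and not in bacteria. Among the 29 Mrps genes these numbers were 16 and 10, with Mrps18b counted in the 10 though related to the bacterial S18 protein. The other 3 do not belong to the small subunit despite their symbol. Mrps18a and Mrps30 sit in the large subunit, and Mrps36 is now known as a subunit of the 2-oxoglutarate dehydrogenase complex.

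Libraries were checked against their labels first. Nfia stood at 3.73 to 4.19 FPKM in WT iWAT and at 99.6 to 166 FPKM in NFIA-Tg iWAT. At day 0 it was 6.3 to 6.51 FPKM in WT and 11.3 to 12.5 FPKM in the libraries labelled NFIA-Tg. At day 7 the order was the opposite, 12 to 13 FPKM in WT against 6.44 to 7.32 FPKM, so Nfia there goes against the label. NFIA-Tg below means, for cultures, the libraries labelled NFIA-Tg. The summed level of 6 mature adipocyte markers was 25400 to 37000 FPKM in iWAT and 23600 to 28700 FPKM at day 7, against 8.28 to 24.6 FPKM at day 0, where Lep was listed at 0 in WT. The 4 brown and beige markers summed to 851 to 895 FPKM in day 7 libraries labelled NFIA-Tg and to 6.21 to 19.8 FPKM in WT at day 7. Culture libraries held 16772594 to 28625625 recovered reads, and single members had 136 to 4743 reads per library (median 756). Read depth is unknown for iWAT. The tissue and culture tables list different numbers of symbols, 25209 and 24825, and nothing says that they used the same gene lengths, so levels are compared only within each. In bulk RNA, fewer cells of a type and less RNA per cell cannot be told apart.

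The summed level of the members was higher at day 7 than at day 0 in both genotypes. Over the 78 genes it was 2332 ± 197 FPKM in WT iWAT and 2544 ± 184 FPKM in NFIA-Tg iWAT (SD, n = 3). In cultures it was 1714 ± 27.2 FPKM in WT and 1697 ± 36.4 FPKM in NFIA-Tg at day 0. By day 7 the sums were 3441 ± 73.7 FPKM in WT and 3878 ± 149 FPKM in NFIA-Tg. The day 7 samples of both genotypes all lay above the day 0 samples. At day 7 the NFIA-Tg samples (3730 to 4027 FPKM) all lay above the WT samples (3395 to 3526 FPKM), while at day 0 and in iWAT the genotypes overlapped. As a share of all FPKM in a library, the members made up 0.473% in WT and 0.468% in NFIA-Tg at day 0, and 0.839% and 0.897% at day 7. In iWAT these shares were 0.507% and 0.554%.

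**Figure D1:**
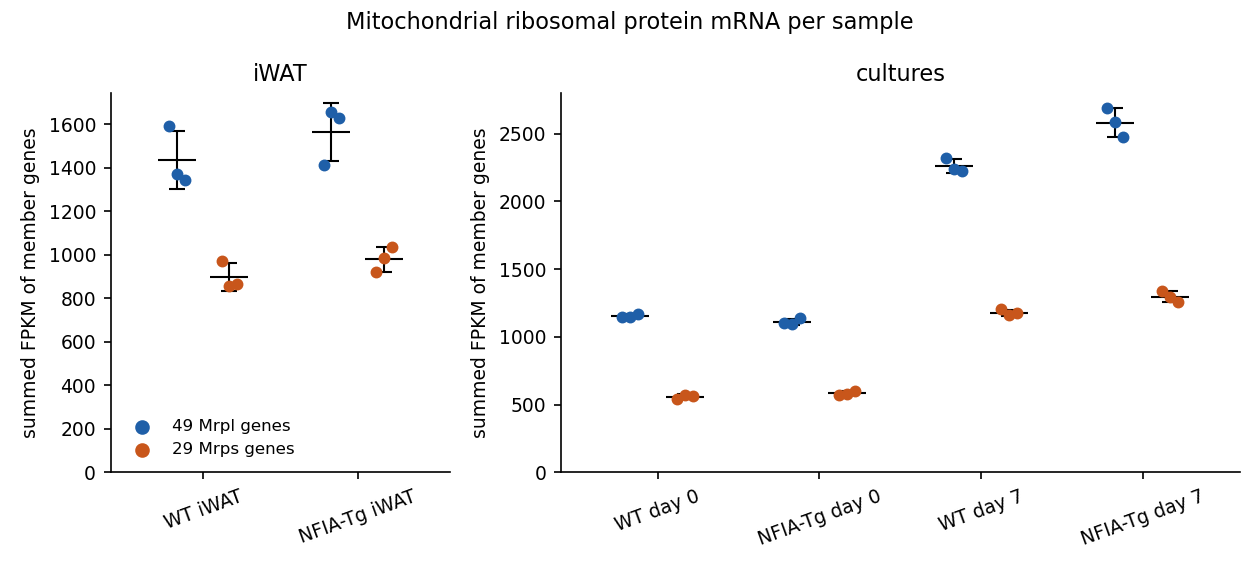
Summed FPKM of the 49 Mrpl and 29 Mrps genes in each sample (points), with group mean and SD (bars), for iWAT and for the cultures. All 6 day 7 samples lie above all 6 day 0 samples in both subunits.

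The median level of an Mrpl gene was 19.1 FPKM in WT at day 0 and 39.3 FPKM at day 7, and that of an Mrps gene was 16 FPKM and 33.1 FPKM. The ratio of the Mrpl median to the Mrps median was 1.2 in WT at day 0, 1.16 in NFIA-Tg at day 0 and 1.19 in WT at day 7. It was 0.995 in NFIA-Tg at day 7, and 0.973 and 1.01 in WT and NFIA-Tg iWAT. This ratio rests on the genes that sit at the middle of each set, and other measures did not follow it. From WT to NFIA-Tg at day 7 the mean Mrpl sum went from 2261 to 2582 FPKM and the mean Mrps sum from 1180 to 1296 FPKM. The median log2 difference between these groups was 0.18 for Mrpl and 0.09 for Mrps genes. Single genes spanned a much wider range than the subunit medians. Mrps6, a homolog of a bacterial small subunit protein, was the highest member in iWAT at 150 FPKM in WT and 157 FPKM in NFIA-Tg. In cultures the highest were Mrpl33 in WT at day 0 (82.3 FPKM), Mrpl12 in WT at day 7 (184 FPKM) and Mrpl13 in NFIA-Tg at both times (106 and 224 FPKM). The lowest were Mrpl19 in iWAT (2.58 and 2.78 FPKM) and Mrps25 in all 4 culture groups (2.79 to 6.24 FPKM). Exons of Mrps25 overlap those of Nr2c2 on the opposite strand by 3533 bases, and Nr2c2 had culture group means of 8.85 to 11.5 FPKM. The strand setting of the counting is not known, so the values of Mrps25 are uncertain. Replicates of a member differed by a median coefficient of variation of 10.8% and 11.2% in WT and NFIA-Tg iWAT, and of 4.16% to 4.81% in the culture groups. Small differences were thus easier to detect in cultures than in the tissue.

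Promoter sequences are shown for 4 members to let the results be read beside the start sites, from RefSeq windows on GRCm38.p6 that run from 250 bases before to 50 bases after the annotated start. Of the 78 members, 69 had such a window. The sequences were searched on both strands for the core motifs of factors known to act at genes of mitochondrial proteins: GCGCATGC for NRF1, CCGGAAG for ETS factors such as GABP, and AAGATGG for YY1. The NRF1 core reads almost the same on both strands, so that 1 site can give 2 overlapping matches. Capitals mark a match on either strand. Mrpl32, a zinc-binding large subunit protein, and Mrpl39, which resembles a threonyl-tRNA synthetase, are shown because they hold the NRF1 core and were higher in NFIA-Tg iWAT. Mrps18b is shown for its day 7 difference and Mrpl12 for the largest rise with differentiation. Mrpl32 lies at chr13:14612988-14613287 (minus strand), Mrpl39 at chr16:84735195-84735494 (minus strand), Mrps18b at chr17:35916391-35916690 (minus strand) and Mrpl12 at chr11:120484387-120484686 (plus strand).
Mrpl32: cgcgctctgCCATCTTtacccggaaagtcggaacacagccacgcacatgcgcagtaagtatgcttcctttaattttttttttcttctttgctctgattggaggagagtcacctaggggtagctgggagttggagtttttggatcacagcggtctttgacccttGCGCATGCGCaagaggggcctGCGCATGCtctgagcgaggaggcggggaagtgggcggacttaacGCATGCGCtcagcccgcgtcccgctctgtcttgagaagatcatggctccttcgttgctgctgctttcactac
Mrpl39: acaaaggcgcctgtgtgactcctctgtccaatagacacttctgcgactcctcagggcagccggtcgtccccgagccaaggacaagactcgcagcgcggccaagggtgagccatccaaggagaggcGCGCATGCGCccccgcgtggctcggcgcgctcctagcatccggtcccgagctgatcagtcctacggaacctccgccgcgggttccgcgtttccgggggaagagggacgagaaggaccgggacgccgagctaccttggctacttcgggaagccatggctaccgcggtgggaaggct
Mrps18b: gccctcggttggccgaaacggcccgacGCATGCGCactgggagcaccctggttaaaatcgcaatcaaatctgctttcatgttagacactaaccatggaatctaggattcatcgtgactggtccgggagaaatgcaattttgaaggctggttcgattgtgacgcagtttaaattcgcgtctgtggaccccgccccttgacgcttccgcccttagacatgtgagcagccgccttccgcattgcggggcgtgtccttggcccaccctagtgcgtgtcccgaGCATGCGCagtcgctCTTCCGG
Mrpl12: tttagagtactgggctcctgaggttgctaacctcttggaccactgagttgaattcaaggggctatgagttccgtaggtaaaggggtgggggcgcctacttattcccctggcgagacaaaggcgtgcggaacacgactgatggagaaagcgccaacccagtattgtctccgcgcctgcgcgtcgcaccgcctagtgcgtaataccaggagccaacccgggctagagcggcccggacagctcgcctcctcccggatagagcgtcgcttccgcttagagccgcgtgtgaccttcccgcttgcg

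The window of Mrpl32 held 4 matches to the NRF1 core, 2 of them overlapping on opposite strands from base -87 to base -78 before the start, and 1 match to the YY1 core. That of Mrpl39 held 2 overlapping NRF1 matches from base -125 to base -116, and that of Mrps18b held 2 NRF1 matches and 1 ETS match. None of the 3 cores was found in the window of Mrpl12. Over the 69 windows, 8 held the NRF1 core (11.6%, against 2.8% of all 27025 promoter windows and 5.63% of the windows of genes tested in cultures). The ETS core was in 25 windows (36.2%, against 9.12% and 18.7%), and the YY1 core in 13 (18.8%, against 6.48% and 7.5%). At least 1 of the 3 was in 37 windows (53.6%, against 17% and 28.7%). The binding sequence of the NFI family, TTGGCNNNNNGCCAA, was in 0 of the 69 windows and in 0.0407% of all windows, and its shorter half-site TTGGC was in 47.8% of the members' windows and in 47% of all. A match describes letters only and is not a shown binding site.

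Many members also start close to another gene that runs the other way. For 26 of the 69 (37.7%, against 11.4% of all windows and 19.1% of those of genes tested), another gene on the opposite strand started no more than 1000 bases upstream. Mrpl46 and Mrps11, a large and a small subunit gene, start 42 bases apart on opposite strands, and the stretch between their starts at chr7:78783090-78783130 (plus strand, GRCm38.p6) is shown because it is all that separates these 2 members. None of the 3 cores lay inside it.
Mrpl46 to Mrps11: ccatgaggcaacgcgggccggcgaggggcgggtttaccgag

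Nearly the whole set was higher after differentiation in both genotypes. From day 0 to day 7, 75 of the 78 members rose and 1 fell in WT cultures, and 77 rose and 1 fell in NFIA-Tg cultures. Over all 12553 genes tested, 81.6% were called in WT (46.2% higher, 35.4% lower) and 87.2% in NFIA-Tg (45.7% higher, 41.5% lower), so the members' rise was far more one-sided than that of genes at large. The median log2 change of the members was 0.98 in WT and 1.21 in NFIA-Tg, against 0.10 and 0.05 over all genes tested. Both subunits took part. Of the 49 Mrpl genes 46 rose in WT and 48 in NFIA-Tg (medians 0.93 and 1.27), and all 29 Mrps genes rose in each (medians 1.01 and 1.18). In 75 members (WT) and 77 (NFIA-Tg) the day 7 samples all lay above the day 0 samples, which holds for 47.4% and 45.7% of genes tested, and in 1 member they lay below (37% and 41.4% of genes). TPM scaling moved the median of all genes to −0.06 in WT and to −0.18 in NFIA-Tg, and quantile normalization moved it to −0.05 in WT. The members' median less that of all genes was 0.88 in WT as deposited and 0.87 to 0.89 under the 3 other scalings, and in NFIA-Tg 1.16 as deposited and 1.00 to 1.16. Between the same times the summed preadipocyte markers in WT went from 1180 to 1510 FPKM at day 0 to 536 to 645 FPKM at day 7, and the dividing cell markers from 139 to 142 FPKM to 268 to 281 FPKM. The part of these, and of the adipocyte markers above, in the members' rise was not tested.

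**Figure D2:**
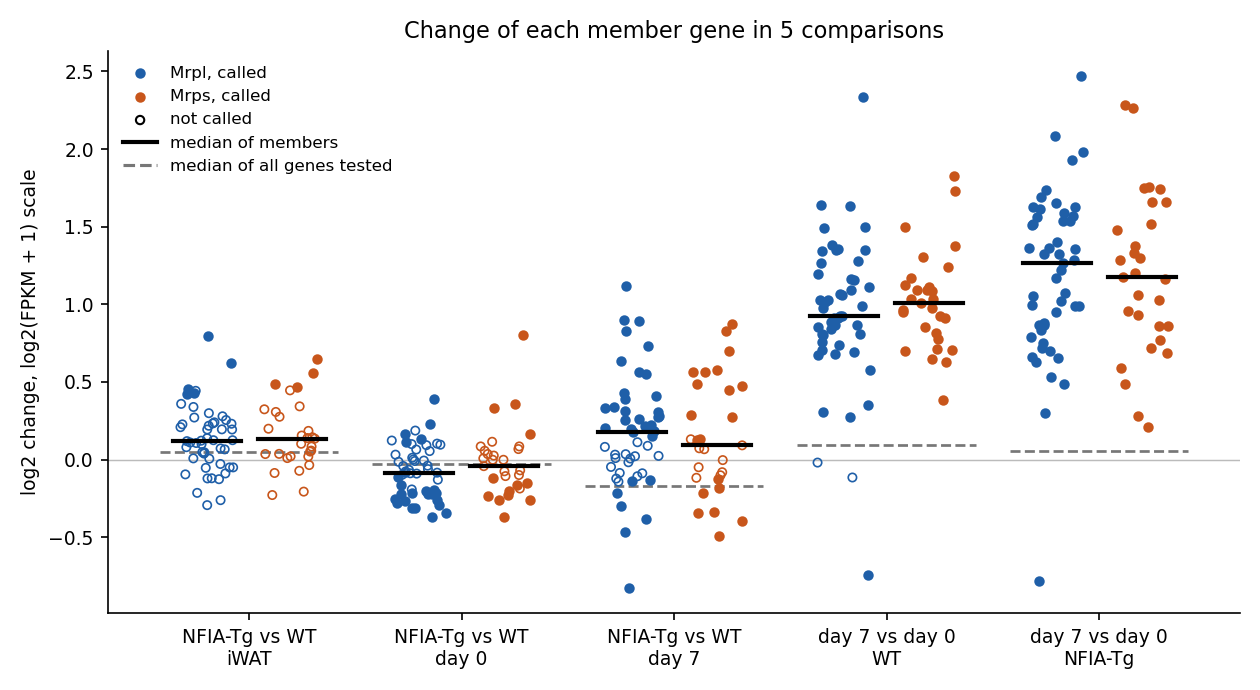
Log2 change of each of the 78 members (points, filled where called at adjusted p under 0.05) in 5 comparisons, with the subunit median (black bar) and the median of all genes tested (dashed line). Differentiation moves both subunits to medians of 0.93 to 1.27, while the genotype comparisons scatter on both sides of 0.

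Mrpl12, the stalk protein that docks translation factors on the ribosome and has also been reported to bind the mitochondrial RNA polymerase, rose the most of all members in both genotypes. It stood at 36.9, 33.1 and 37 FPKM in WT at day 0 and at 188, 187 and 176 FPKM at day 7 (log2 change 2.33 ± 0.05 SE, adjusted p = 3.22e-13). In NFIA-Tg it went from 28.8, 29.3 and 30.2 FPKM to 172, 171 and 160 FPKM (log2 change 2.47 ± 0.05). Every day 7 sample lay far above every day 0 sample. Mrpl10, the protein that anchors this stalk, rose less, by 0.81 ± 0.05 in WT and 0.75 ± 0.05 in NFIA-Tg on the log2 scale.

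Next among large subunit genes in WT came Mrpl51 and Mrpl18. Mrpl51, specific to mitochondria, rose from 24.4, 24.9 and 25.8 FPKM to 85.7, 75.6 and 79.2 FPKM (log2 change 1.64 ± 0.06). Mrpl18, a homolog of a bacterial protein, rose from 37, 33.8 and 36.5 FPKM to 122, 106 and 112 FPKM (log2 change 1.64 ± 0.05). In the small subunit the largest rises were in Mrps22 and Mrps35, both absent from bacterial ribosomes. Mrps22 went from 10.8, 12.8 and 11.3 FPKM to 43.8, 42.4 and 44.5 FPKM in WT (log2 change 1.82 ± 0.07) and rose by 2.27 ± 0.07 in NFIA-Tg. Mrps35 rose by 1.73 ± 0.07 in WT and by 2.28 ± 0.07 in NFIA-Tg. In none of these 4 genes did day 0 and day 7 samples overlap.

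A few members stood apart from the rise in WT. Mrpl52, a mitochondria-specific large subunit protein, was the only member that fell, in both genotypes. It stood at 65.1, 73 and 73.9 FPKM in WT at day 0 and at 41.6, 40.1 and 43.8 FPKM at day 7 (log2 change −0.74 ± 0.10, adjusted p = 1.28e-05). In NFIA-Tg it went from 69.3, 66.9 and 74.7 FPKM to 43.2, 45.9 and 33.3 FPKM (log2 change −0.78 ± 0.10, adjusted p = 6.11e-06). The 2 times did not overlap in either genotype. Mrpl23 and Mrpl33, homologs of bacterial large subunit proteins, did not pass the test in WT, with log2 changes of −0.12 ± 0.07 (adjusted p = 0.149) and −0.02 ± 0.04 (adjusted p = 0.685). Without WT day 7 replicate 1 Mrpl23 was called lower, with a log2 change of −0.18. Under the 3 other scalings both genes were called lower in WT, Mrpl23 by −0.21 to −0.29 and Mrpl33 by −0.12 to −0.28 (adjusted p = 0.0289 under median-of-ratios scaling and 2.97e-05 under quantile normalization). In NFIA-Tg both were called higher, Mrpl23 by 0.66 ± 0.07 and Mrpl33 by 0.30 ± 0.04, though the latter turned to −0.02 under quantile normalization. Annotated pseudogenes named after a member exist for Mrpl23 (1), Mrpl48 (1) and Mrps36 (3). Pseudogenes under other names were not searched for, and whether reads are shared with any of them is not known here.

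The rise differed between the genotypes for many members, though less often than for genes at large. The change from day 0 to day 7 was larger in NFIA-Tg for 40 members and smaller for 7, by the test of the difference itself, where 72.1% of all genes were called (29.5% larger, 42.6% smaller). The median of this difference was 0.20 for the members and −0.11 for all genes. Of the Mrpl genes 27 were larger and 3 smaller, and of the Mrps genes 13 and 4. Across the 78 members the changes in the 2 genotypes, which share no samples, correlated with Pearson's r of 0.70 and Spearman's rho of 0.58, as a description of genes that are not independent. Over all genes r was 0.79.

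**Figure D3:**
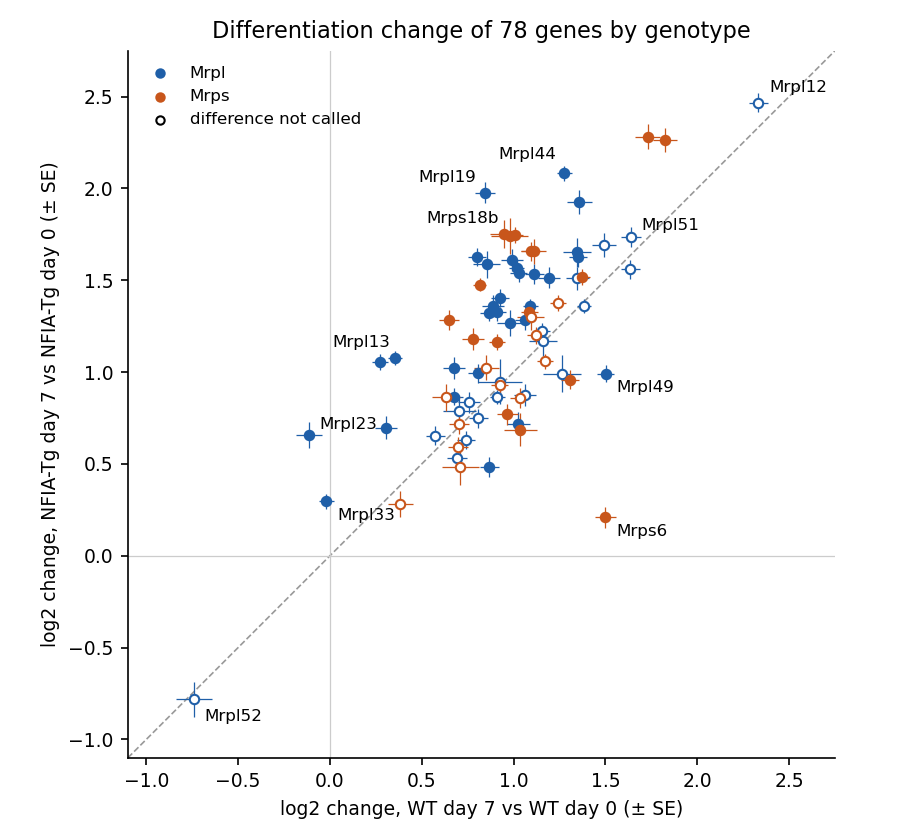
Log2 change from day 0 to day 7 in WT (horizontal axis) and in the libraries labelled NFIA-Tg (vertical axis) for each of the 78 members, with SE. Open points are members whose change did not differ between genotypes at adjusted p under 0.05. Mrps6 lies far below the line of equal change and Mrpl19, Mrpl44 and Mrps18b above it.

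The largest such difference was in Mrps6, where the rise was nearly absent in NFIA-Tg. In WT it went from 32.2, 34.4 and 35.3 FPKM to 93.4, 99.8 and 100 FPKM (log2 change 1.50 ± 0.06). In NFIA-Tg it began higher, at 58.1, 57.2 and 64.5 FPKM, and was at 67.5, 66.8 and 74 FPKM at day 7. Its log2 change there was 0.21 ± 0.06 (adjusted p = 0.00415), but turned to −0.04 under TPM scaling and to −0.09 under quantile normalization. The difference between the genotypes was −1.29 ± 0.08 (adjusted p = 2.43e-08). The exons of Mrps6 overlap those of 2 genes on the same strand: Slc5a3, a myo-inositol transporter gene, by 159 bases, and Gm49711 by 305 bases. Reads there cannot be assigned by strand, so the values of Mrps6 are uncertain. Slc5a3 was at 3.71 to 4.04 FPKM in WT and 9.62 to 12.2 FPKM in NFIA-Tg at day 0, and at 9.58 to 10.1 and 7.35 to 11.1 FPKM at day 7, and its part in the result was not tested.

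In the other direction, Mrpl19 rose more in NFIA-Tg, with a difference of 1.14 ± 0.08 (adjusted p = 5.27e-08). It went from 3.7, 3.94 and 3.82 FPKM to 7.97, 7.46 and 7.52 FPKM in WT, and from 2.77, 2.81 and 3.09 FPKM to 14.8, 13.2 and 15 FPKM in NFIA-Tg. Its exons overlap those of Gcfc2 on the opposite strand by 1962 bases in the GRCm38 annotation, and the strand setting of the counting is not known, so the values of Mrpl19 are uncertain. Gcfc2 went from 4.49 to 5.69 FPKM in WT and from 3.17 to 7.51 FPKM in NFIA-Tg, as means of 3 samples, and its part in the result was not tested. Mrpl44, whose protein has the fold of a ribonuclease III, went from 10.5, 10.2 and 9.87 FPKM to 26.9, 25.6 and 25.8 FPKM in WT. In NFIA-Tg it went from 9.27, 10.1 and 9.49 FPKM to 45.5, 42.8 and 43.6 FPKM (difference 0.81 ± 0.06, adjusted p = 1.14e-07). Exons of Mrpl44 overlap those of Wdfy1 on the opposite strand by 126 bases. As means of 3 samples, Wdfy1 went from 11.35 to 6.64 FPKM in WT and from 13.64 to 17.76 FPKM in NFIA-Tg. The part of Wdfy1 in the result was not tested. Mrpl15, a homolog of a bacterial protein, had a difference of 0.83 ± 0.07, and Mrps28 one of 0.77 ± 0.14. Mrpl49, Mrpl22 and 5 other members rose less in NFIA-Tg, with differences of −0.51 ± 0.07 for Mrpl49 and −0.38 ± 0.08 for Mrpl22.

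At day 7 the genotypes were set side by side directly. In NFIA-Tg 39 of the 78 members were higher and 14 lower, while over all genes tested 80.9% were called, 29.8% higher and 51.1% lower. The members' share called higher, 50%, was thus above that of all genes, and their share called lower, 17.9%, below it. The members' median log2 change was 0.13 against −0.17 for all genes. The NFIA-Tg samples all lay above the WT samples in 41 members (29.8% of genes) and below them in 14 (51.4% of genes). Of the Mrpl genes 26 were higher and 7 lower, and of the Mrps genes 13 and 7. The split depended on the scaling. Of the called members, 73.6% were higher with FPKM as deposited, 86.7% under median-of-ratios scaling and 62.3% under TPM scaling, and the median of all genes moved from −0.17 to −0.06 under the first of these. The members' median less that of all genes was 0.30 as deposited and 0.19 to 0.33 under the other scalings. At this time the 4 dividing cell markers were all lower in NFIA-Tg, summing to 88.1 to 92.7 FPKM against 268 to 281 FPKM in WT. Preadipocyte markers, 4 of 4 tested lower, summed to 160 to 224 FPKM against 536 to 645 FPKM, with Dpp4 listed at 0 in NFIA-Tg. The part of either in the members' levels was not tested.

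The largest difference was in Mrpl13, a homolog of a bacterial large subunit protein. It stood at 102, 102 and 105 FPKM in WT and at 228, 218 and 227 FPKM in NFIA-Tg (log2 change 1.12 ± 0.04, adjusted p = 4.74e-11). It was higher already at day 0, at 79.2, 80.4 and 81.6 FPKM in WT against 105, 102 and 110 FPKM in NFIA-Tg (log2 change 0.39 ± 0.04), and the groups did not overlap at either time. Its exons overlap those of Mtbp on the opposite strand by 330 bases. The strand setting of the counting is not given, so reads of the pair cannot be told apart there, and Mtbp was at 14.2 FPKM in WT and 17.9 FPKM in NFIA-Tg at day 7. In the GRCm38 annotation, exons of a protein-coding gene on the opposite strand overlapped those of 16 members, 12 of them by at least 100 bases, among them Mrpl24 (594 bases), Mrpl47 (452 bases) and Mrpl44 (126 bases).

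Mrpl23, Mrpl24, Mrpl47 and Mrpl22 encode homologs of bacterial proteins at the exit of the peptide tunnel. They were picked out after their values were seen and are not a full list of such proteins. Mrpl23 was at 14.6, 13.2 and 12 FPKM in WT against 27.1, 26.2 and 23.5 FPKM in NFIA-Tg (log2 change 0.90 ± 0.07). Mrpl24 was at 51, 50.8 and 50.8 FPKM in WT against 96.8, 91.9 and 96.9 FPKM in NFIA-Tg (log2 change 0.89 ± 0.04), and Mrpl47 was higher by 0.55 ± 0.07. These 3 had separated groups. Mrpl22 was lower, at 34.4, 31.9 and 33.5 FPKM in WT against 26.1, 26.4 and 23.4 FPKM (log2 change −0.38 ± 0.05), also without overlap.

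Among small subunit genes Mrps18b, Mrps23 and Mrps10 were highest in NFIA-Tg relative to WT. Mrps23, specific to mitochondria, was at 31, 28.8 and 29.5 FPKM in WT against 55.1, 51.6 and 54.1 FPKM in NFIA-Tg (log2 change 0.83 ± 0.04). Mrps10, a homolog of a bacterial protein, was at 31.6, 29.8 and 30.6 FPKM and 49.7, 49.4 and 52 FPKM (log2 change 0.70 ± 0.04). Mrps12, at the centre where codons are read, was at 20.9, 20.4 and 19.4 FPKM and 34, 30.8 and 26.7 FPKM (log2 change 0.56 ± 0.08). In all 3 the genotypes did not overlap.

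The 3 paralogs of the bacterial S18 protein did not move together at day 7. Mrps18b and Mrps18c occupy the small subunit and Mrps18a the large one. Mrps18b stood at 35, 30.9 and 33.6 FPKM in WT and at 67.2, 61.8 and 56.1 FPKM in NFIA-Tg (log2 change 0.87 ± 0.08, adjusted p = 3.32e-07). Mrps18a was at 71.9, 72.6 and 72.7 FPKM in WT against 64.3, 64.2 and 62.5 FPKM in NFIA-Tg (log2 change −0.18 ± 0.04, adjusted p = 0.00142), a call lost under median-of-ratios scaling (−0.05, adjusted p = 0.286). Mrps18c was at 83.8, 85.6 and 82.6 FPKM and 76.6, 74.3 and 80 FPKM (log2 change −0.12 ± 0.05, adjusted p = 0.0266), a difference that turned to 0.01 under median-of-ratios scaling. With 1 library left out the call of Mrps18c held in 2 of 6 fits (adjusted p up to 0.099, without NFIA-Tg replicate 2). All 3 rose from day 0 to day 7 in both genotypes, by 0.95 to 1.17 in WT and 1.06 to 1.75 in NFIA-Tg on the log2 scale. Mrps30, the other Mrps protein of the large subunit, was lower by −0.12 ± 0.05 at day 0 (adjusted p = 0.0468) and higher by 0.13 ± 0.05 at day 7 (adjusted p = 0.0224). Neither call was firm. That at day 0 held in 2 of 6 fits with 1 library left out (adjusted p up to 0.213, without WT replicate 2). That at day 7 held in 3 of 6, and was lost under TPM scaling (adjusted p = 0.341). In iWAT none of the 3 paralogs passed the test (adjusted p = 0.345 to 0.805), and the difference in Mrps18a changed sign without NFIA-Tg replicate 2 (−0.018) or replicate 3 (−0.004).

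**Figure D4:**
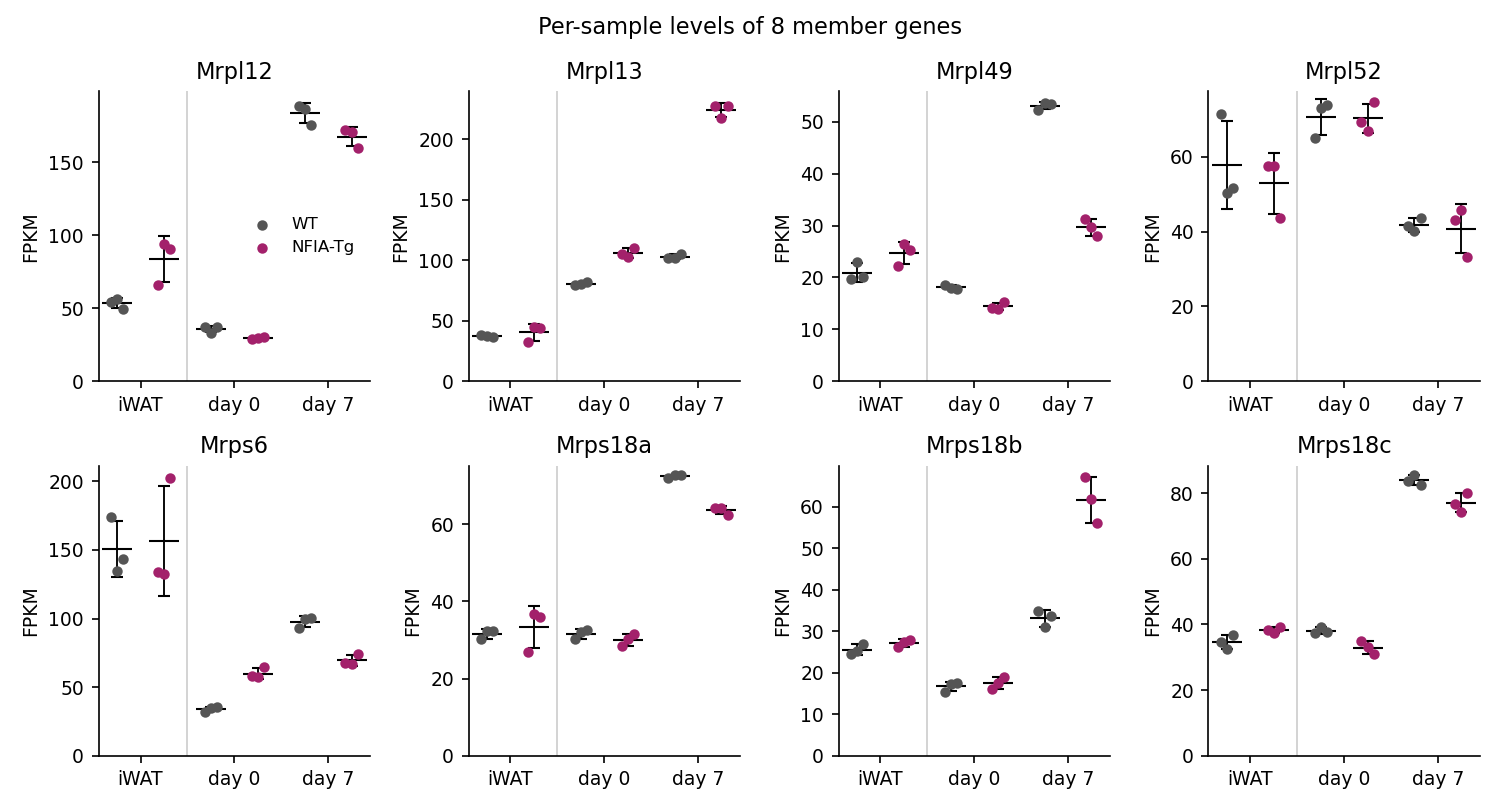
FPKM of 8 members in each sample (points; WT grey, NFIA-Tg magenta), with group mean and SD; the vertical line separates tissue from cultures, whose levels are not compared. Mrpl13 and Mrps18b are higher in NFIA-Tg than WT at day 7, Mrpl49 and Mrps6 are lower, and Mrpl52 falls with differentiation.

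Members that were lower in NFIA-Tg at day 7 were led by Mrpl49, Mrps6 and Mrpl28. Mrpl49, specific to mitochondria, was at 52.3, 53.6 and 53.5 FPKM in WT against 31.2, 29.6 and 28 FPKM in NFIA-Tg (log2 change −0.82 ± 0.05, adjusted p = 3.89e-09). It was lower at day 0 too, by −0.31 ± 0.05, with separated groups at both times. Exons of Mrpl49 overlap those of Syvn1 on the opposite strand by 91 bases. As means of 3 samples, Syvn1 was at 21.45 FPKM in WT and 34.11 FPKM in NFIA-Tg at day 7. The part of Syvn1 in the result was not tested. Mrps6 was lower by −0.49 ± 0.06 at day 7, where it had been higher by 0.80 ± 0.06 at day 0. Mrpl28, a homolog of a bacterial protein, was at 71.6, 76.1 and 68.8 FPKM and 54.5, 51.5 and 49.9 FPKM (log2 change −0.47 ± 0.06). Mrpl12 was lower by −0.13 ± 0.05 (adjusted p = 0.0277), but 0.01 higher under median-of-ratios scaling. Mrpl10 did not pass (0.04 ± 0.05, adjusted p = 0.528).

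At day 0, before induction, 9 members were higher and 27 lower in the libraries labelled NFIA-Tg, where 63% of all genes were called (28.1% higher, 34.9% lower). The members' share called lower, 34.6%, was close to that of all genes. Their share called higher, 11.5%, was below it. The median log2 change was −0.07 for the members and −0.03 for all genes. Of the Mrpl genes 5 were higher and 18 lower, and of the Mrps genes 4 and 9. The NFIA-Tg samples lay above the WT samples in 11 members (31.6% of genes) and below in 30 (38.6%). Of the called members, 25% were higher with FPKM as deposited, 37.8% under median-of-ratios scaling and 39.5% under quantile normalization.

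Beside Mrps6 and Mrpl13, described above, the members with the largest called differences at day 0 were these. Mrpl54, specific to mitochondria, was at 51.5, 56.4 and 53.8 FPKM in WT against 43.6, 40.8 and 40.2 FPKM in NFIA-Tg (log2 change −0.37 ± 0.06, adjusted p = 0.000213). Mrpl40 was at 18.3, 19.7 and 20 FPKM and 13.8, 15.3 and 16.1 FPKM (log2 change −0.34 ± 0.06), and Mrps22 at 10.8, 12.8 and 11.3 FPKM and 7.98, 8.93 and 9.4 FPKM (log2 change −0.37 ± 0.07). Mrps21, another homolog of a bacterial small subunit protein, was higher, at 39.6, 46.4 and 51.1 FPKM against 57.2, 58.4 and 59.7 FPKM (log2 change 0.35 ± 0.10, adjusted p = 0.00868). None of these 4 overlapped between genotypes. The 4 dividing cell markers were all lower in NFIA-Tg at this time as well (47.4 to 51.9 FPKM summed, against 139 to 142 FPKM in WT). Preadipocyte markers, 2 of 4 tested higher, summed to 2060 to 2610 FPKM against 1180 to 1510 FPKM, and mature adipocyte markers, 3 of 5 tested higher, to 16 to 24.6 FPKM against 8.28 to 10.5 FPKM. The part of these in the result was not tested.

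In iWAT fewer members differed. With limma, 9 were higher in NFIA-Tg and 0 lower, where 11.4% of all 12396 genes tested were called (5.96% higher, 5.44% lower). At an unadjusted p under 0.05 the numbers were 18 higher and 0 lower, against 16% and 12.6% of all genes. The members' median log2 change was 0.12, against 0.05 for all genes, and 61 of the 78 lay above 0. The NFIA-Tg samples lay above the WT samples in 20 members and below in 0, against 20.5% and 13.9% of genes tested. The 9 were Mrpl9, Mrpl12, Mrpl32, Mrpl39 and Mrpl47 of the large subunit and Mrps5, Mrps16, Mrps31 and Mrps35 of the small subunit. This count rested on single libraries. It was 2, 3 and 1 without WT replicate 1, 2 or 3, and 6, 0 and 1 without NFIA-Tg replicate 1, 2 or 3, and none of the 9 was called in all 6 of these fits.

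Mrpl47 was at 5.84, 8 and 6.45 FPKM in WT against 10.9, 14.9 and 11.6 FPKM in NFIA-Tg (log2 change 0.80 ± 0.16, adjusted p = 0.0168, 0.0615 at most with 1 library left out). Mrpl12 was at 54.1, 56 and 49.4 FPKM and 65.6, 94.1 and 90.8 FPKM (log2 change 0.62 ± 0.15, adjusted p = 0.0311). Mrps31, specific to mitochondria, was at 8.67, 10.1 and 11.7 FPKM and 14, 17.5 and 17.8 FPKM (log2 change 0.65 ± 0.14, adjusted p = 0.0253). The genotypes did not overlap in these 3, although NFIA-Tg replicate 1 lay closest to WT in Mrpl12 and Mrps31. Mrpl39 was at 14.5, 17 and 13.9 FPKM and 20.8, 22.8 and 19.6 FPKM (log2 change 0.45 ± 0.12, adjusted p = 0.0414). Mrps16 was at 35.8, 30.3 and 35.2 FPKM and 42.9, 48.9 and 51.2 FPKM (log2 change 0.48 ± 0.11, adjusted p = 0.0301), and Mrps35 was higher by 0.56 ± 0.15 (adjusted p = 0.0494). In the same tissue 3 of 4 endothelial markers were lower (253 to 389 FPKM summed in NFIA-Tg, 547 to 590 FPKM in WT). Skeletal muscle markers, 1 of 2 tested lower, summed to 11.8 to 39.7 FPKM against 123 to 182 FPKM. Brown and beige markers, 3 of 4 higher, summed to 737 to 1050 FPKM against 39.5 to 107 FPKM. The part of these in the members' levels was not tested.

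Across the 3 genotype comparisons, which share no samples, the members showed little common order. Mrps16 alone was called higher in all 3, but with 1 library left out its calls at day 0 and in iWAT each held in 2 of 6 fits (adjusted p up to 0.16 without WT day 0 replicate 3 and 0.102 without NFIA-Tg iWAT replicate 2). Mrpl12 was higher in iWAT and lower at both culture times, and Mrpl32, Mrpl9 and Mrps35 were higher in iWAT and at day 7 but lower at day 0. With 1 library left out, the iWAT calls held in 1 of 6 fits for Mrpl12 and Mrps35 and in 0 of 6 for Mrpl32 and Mrpl9. The day 7 call of Mrpl12 held in 3 of 6, and the day 0 call of Mrpl9 in 2 of 6. The other culture calls of these genes held in all 6. Another 15 of the 78 were called in none of the 3 comparisons. Over the 78 members the log2 changes in iWAT correlated with those at day 7 with Pearson's r of 0.08 and Spearman's rho of 0.10, and those at day 0 with those at day 7 with r of 0.16 and rho of 0.19. Over all genes these r were 0.17 and 0.18.

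The test of the difference between the genotype change in iWAT and that at day 7 called 15 members higher in iWAT and 16 higher at day 7, where 54.3% of all genes were called (35.8% higher in iWAT, 18.5% higher at day 7). This contrast takes differences within each table, so it does not rest on levels across them, but it assumes one spread for tissue and culture. The members' median was −0.02 against 0.18 for all genes, and turned to 0.06 under TPM scaling, which moves all genes. The members' median less that of all genes was −0.20 as deposited and −0.13 to −0.23 under the 3 other scalings. Of the called members, 48.4% were on the iWAT side as deposited, 15.2% under median-of-ratios scaling, 31.2% under quantile normalization and 58.8% under TPM scaling. The 8 genes named next kept their call in every alternative run. Mrpl49 (1.05 ± 0.11), Mrpl22 (0.82 ± 0.17), Mrpl12 (0.76 ± 0.16) and Mrps26 (0.67 ± 0.15) were on the iWAT side. Mrpl13 (−1.01 ± 0.14), Mrpl23 (−0.86 ± 0.22), Mrps18b (−0.79 ± 0.11) and Mrps10 (−0.73 ± 0.08) were on the day 7 side.

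Promoter features were set beside these changes as a description. Of the 8 members with the NRF1 core, 3 were higher in NFIA-Tg iWAT (Mrpl9, Mrpl32 and Mrpl39). Those iWAT calls held in 1 of 6 fits with 1 library left out for Mrpl39, and in 0 of 6 for Mrpl9 and Mrpl32. At day 7, 5 of the 8 were higher and 1 lower, and 7 rose with differentiation in WT. Of the 25 members with the ETS core, 1 was higher in iWAT, and 8 were higher and 6 lower at day 7. In WT 23 of them rose and 1 fell. Of the 13 with the YY1 core, 1 was higher in iWAT, and 5 were higher and 3 lower at day 7. In WT 12 of these rose and 1 fell. Of the 32 members with none of the 3 cores, 4 were higher in iWAT and 31 rose in WT. At day 7, 20 of the 32 were higher and 6 lower. Over all genes tested, 5.96% were higher in iWAT and 46.2% rose in WT. At day 7, 29.8% of all genes were higher and 51.1% lower. Genes across a divergent start had a smaller median rise with differentiation than the members and a day 7 genotype median of opposite sign. Neither difference was tested. In 23 such pairs with a partner that was tested and is no member, all 23 members rose in WT while 17 partners rose and 3 fell, with a median log2 change of 1.02 for the members and 0.48 for the partners. At day 7, 13 of these members were higher in NFIA-Tg and 4 lower, while 6 partners were higher and 14 lower (medians 0.19 and −0.24). The median over all genes tested was 0.095 with differentiation in WT and −0.172 for genotype at day 7. Its sign at day 7 was thus that of the partners. Mrpl46 and Mrps11 both rose in WT, by 1.49 ± 0.07 and 0.97 ± 0.06. In NFIA-Tg they rose by 1.69 ± 0.07 and 0.77 ± 0.06.

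Other genes of mitochondrial translation were followed through lists made by function. With differentiation in WT, 15 of 16 translation factors, 17 of 20 aminoacyl-tRNA synthetases, 24 of 29 factors for ribosomal RNA and ribosome assembly, and 19 of 19 genes of mitochondrial DNA transcription and replication rose. The synthetases had 1 fall and the other 3 lists 0. The medians were 0.81, 0.78, 0.58 and 0.57, below the members' 0.98. Gfm1, the elongation factor that moves the ribosome along the messenger, rose from 14.5, 15.7 and 15.1 FPKM to 74.8, 68.8 and 70.1 FPKM (log2 change 2.17 ± 0.04), with no overlap. Tufm, which brings charged tRNA, rose by 1.70 ± 0.05. The 5 mitoribosomal proteins under other symbols all rose, among them Ptcd3 (1.71 ± 0.04). Nuclear respiratory chain subunits rose more, 77 of 78 with a median of 1.75. Cytosolic ribosomal protein genes went the other way, 1 of 78 higher and 70 lower with a median of −0.61, and −0.64 in NFIA-Tg (3 higher, 70 lower).

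**Figure D5:**
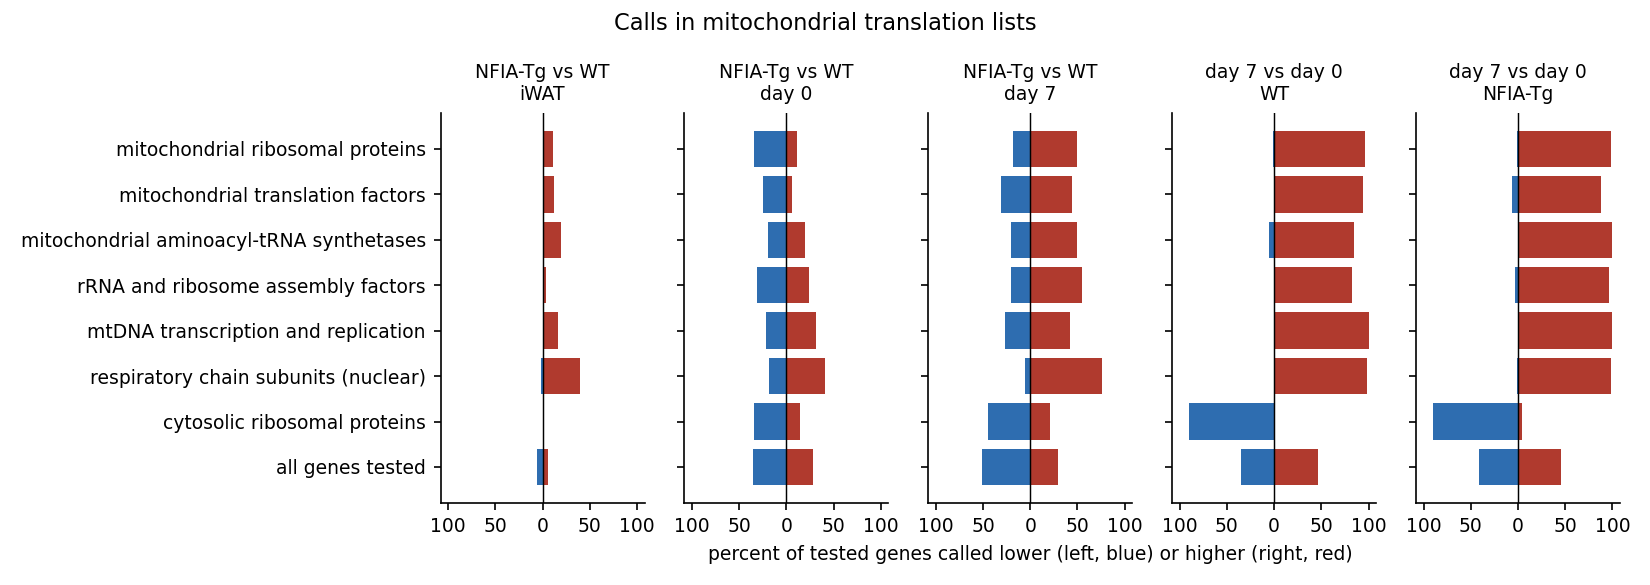
Percent of tested genes of each list called lower (blue, left of 0) or higher (red, right of 0) in 5 comparisons, with all genes tested at the bottom. Cytosolic ribosomal proteins are mostly lower with differentiation in both genotypes, while the mitochondrial lists are mostly higher.

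By genotype at day 7 these lists were mixed, as the members were. Translation factors had 7 of 16 higher and 5 lower, synthetases 10 of 20 and 4, assembly factors 16 of 29 and 6, and the genes of mitochondrial DNA 8 of 19 and 5. Respiratory chain subunits were more one-sided, 59 of 78 higher and 4 lower with a median of 0.47. Lrpprc, which stabilizes mitochondrial messenger RNA, was at 27.5, 27.1 and 26.7 FPKM in WT against 42.5, 44.8 and 48.2 FPKM in NFIA-Tg (log2 change 0.71 ± 0.05). Mtg1, a GTPase of large subunit assembly, was at 7.51, 7.9 and 8.32 FPKM and 20.8, 18.6 and 20.6 FPKM (log2 change 1.23 ± 0.06). Neither overlapped between genotypes. Ppargc1a, the coactivator of mitochondrial biogenesis, was at 0.501, 0.687 and 0.655 FPKM in WT against 21, 24.8 and 27.5 FPKM in NFIA-Tg (log2 change 3.97 ± 0.08).

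In iWAT, 31 of 79 respiratory chain subunits were higher and 1 lower, with a median of 0.36, against 0.12 for the members. Translation factors had 2 of 16 higher, synthetases 4 of 20, assembly factors 1 of 29 and the genes of mitochondrial DNA 3 of 18, with 0 lower by limma in each and medians of 0.31, 0.40, 0.25 and 0.30. Gatb, a subunit of the enzyme that makes glutaminyl-tRNA in mitochondria, was at 6.54, 7.14 and 5.86 FPKM in WT against 12.4, 16.9 and 22 FPKM in NFIA-Tg (log2 change 1.24 ± 0.19, adjusted p = 0.00637). Mterf3, a factor of the mitochondrial transcription termination family, was at 8.21, 12.4 and 10.5 FPKM and 19.9, 20.1 and 21.2 FPKM (log2 change 0.93 ± 0.14, adjusted p = 0.00637). Neither overlapped. Cytosolic ribosomal protein genes had 0 of 79 called in either direction by limma (1 higher and 1 lower at an unadjusted p under 0.05).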

How the data were processed

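Per the labels' protocols, RNA came from a Trizol and RNeasy extraction and polyadenylated RNA was made into stranded libraries. The authors deposited FPKM values per gene, in 1 table layout for iWAT and another for cultures. STAR 2.7.8a, StringTie 2.1.1 and the build mm9 are named, without their roles, in the submitters' processing notes. The sources used here give neither the annotation nor the strand setting nor the treatment of reads with several matches. In the iWAT files 410 rows shared 180 symbols and were summed. None of these symbols was a member. In cultures 100% of values were whole reads within 0.01 read once scaled, and these recovered reads give the depth.

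Groups were compared on log2(FPKM + 1) by limma 3.58.1 in R 4.3.3, with a variance trend and Benjamini-Hochberg adjustment over all genes with at least 1 FPKM in 3 fitted samples. A call needs an adjusted p under 0.05. All log2 changes are on that scale, where those of low genes come out too small. Tissue (2 groups) and cultures (4 groups) were fitted separately. The difference between iWAT and day 7 was fitted on the iWAT and day 7 samples together (4 groups). The procedure was tested on simulated data. Tables and plots used Python 3.11.15, pandas 2.3.3, numpy 2.4.6 and matplotlib 3.10.9. The members and lists were chosen with earlier results of these data known. Members named are the 3 per subunit with the largest change among called members with separated groups and at least 5 FPKM in the higher group, the 3 against the main direction, the most and least abundant, Mrpl10, Mrpl12, Mrps12, Mrps30 and the Mrps18 paralogs. Others, among them Mrpl23 and Mrpl33 in WT, Mrpl52, Mrpl46, Mrps11 and some of the genes in iWAT, were chosen after their values were seen. Alternatives were other pseudocounts, filters, scalings and variance models, a replicate block, 1 fit of all samples, and each library left out in turn.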

Additional observations from a re-analysis of the deposited data

Results flagged for a closer look

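The change from day 0 to day 7 differed between the genotypes in 47 of the 78 members, by limma's test of the difference itself. That share was below the 72.1% of all genes tested that were called. On the log2 scale, NFIA-Tg less WT, the difference was 1.135 for Mrpl19, 0.826 for Mrpl15, 0.805 for Mrpl44, 0.806 for Mrps18b and 0.766 for Mrps28. It was −1.289 for Mrps6, −0.51 for Mrpl49 and −0.383 for Mrpl22.

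The genotype change differed between iWAT and day 7 cultures in 31 members, again by the test of the difference. This share too was below that of all genes tested, of which 54.3% were called. On the log2 scale, iWAT less day 7, the difference was 1.051 for Mrpl49, 0.825 for Mrpl22, 0.757 for Mrpl12 and 0.668 for Mrps26. It was −1.009 for Mrpl13, −0.859 for Mrpl23, −0.79 for Mrps18b and −0.733 for Mrps10.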

How the results depend on the processing

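The differentiation results moved least. Of the 76 members called in WT, 74 were called in every alternative setting and 76 in every fit with 1 library left out, and in NFIA-Tg 74 and 78 of 78. At day 7, 39 and 47 of 53 were, at day 0 19 and 29 of 36, for the difference between genotypes 34 and 40 of 47, and between iWAT and day 7 15 and 20 of 31. In iWAT 0 of 9 were. The iWAT count was 2 without a filter, 5 under median-of-ratios scaling, 5 under TPM scaling, 5 without the variance trend, 25 in 1 fit of all 18 samples and 0 to 6 with 1 library left out. The day 0 count was 20 in 1 fit of all samples. The cause of these shifts was not tested.

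Replicate numbers did not pair the samples: deviations of same-numbered samples correlated with r of −0.108 to 0.156. With the replicate block the iWAT count was 5, that at day 0 35 and that at day 7 53.

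Signs changed in a few cases. Under median-of-ratios scaling the day 7 difference was 0.007 for Mrpl12 and 0.013 for Mrps18c. The change in NFIA-Tg was −0.041 (TPM scaling) and −0.085 (quantile normalization) for Mrps6 and −0.02 (quantile normalization) for Mrpl33. With 1 library left out, the change of Mrpl33 in WT, called under the 3 other scalings alone, ran from −0.04 to 0.017, with 0.005 without WT day 0 replicate 3. The iWAT difference of Mrps18a, not called in any setting, ran from −0.018 to 0.197 and was below 0 where NFIA-Tg replicate 2 or 3 (−0.004) was dropped.

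The planned count tests with edgeR and DESeq2 on recovered reads were not run. limma's voom on those reads, chosen after seeing the data, called 32 members at day 0, 54 at day 7, 76 and 78 with differentiation and 45 for the difference between genotypes. Read depth is unknown in iWAT, where replicates also scattered more.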
